A study of Mus musculus with 4 samples.

Results

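The enzymes described here make serine, asparagine and proline and carry serine onward into one-carbon units and cysteine. They were taken by name from the deposited gene table: Asns, Phgdh, Psat1, Psph, Shmt2, Mthfd2, Pycr1, Aldh18a1, Cth and Cbs. Of these 10 genes, 9 were among the 10716 genes of the table, and Cbs was not analysed here. The samples were YFP-positive erythroid cells, sorted by flow cytometry with the R26eYFP reporter from C57BL/6 mouse fetal liver at embryonic day 14.5. The KO group held 2 libraries (replicates 1 and 2) described as Epor-ADAR knockout, with the genotype field Epor-Adar / +. In these animals Cre recombinase is driven by Epor, the erythropoietin receptor gene, so recombination is directed to the erythroid lineage, and the field does not say whether 1 or both Adar alleles were deleted. The WT group held 2 libraries (replicates 3 and 8) with the genotype wild type, also sorted for YFP, and the labels do not state which Cre they carried. It addresses what differs in erythroid RNA when Adar, which encodes the RNA-editing enzyme ADAR1, is targeted.

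Serine is made from the glycolytic intermediate 3-phosphoglycerate by PHGDH, PSAT1 and PSPH in turn. SHMT2 and MTHFD2 then pass the side carbon of serine to folate inside mitochondria, which supplies formate for nucleotide synthesis and glycine for haem, a large demand in erythroid cells. Asparagine synthetase makes asparagine from aspartate and glutamine, and ALDH18A1 and PYCR1 make proline from glutamate. Cystathionine beta-synthase (Cbs) and cystathionine gamma-lyase (Cth) turn homocysteine and serine into cysteine. In mammalian cells these genes are textbook targets of the transcription factor ATF4, which binds C/EBP-ATF response elements when amino acids are short or the initiation factor eIF2 is phosphorylated.

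Promoter sequences are shown for the enzymes with the smallest p-values that have one in the RefSeq promoter table, and for Asns, whose response element is the classical example of this kind. Each runs from 250 bases before to 50 bases after the annotated start, 5′ to 3′ on the gene's strand, on build GRCm38.p6, and all 4 genes lie on the minus strand. The intervals are chr11:120643699-120643998 for Pycr1, chr6:7693160-7693459 for Asns, chr10:127522395-127522694 for Shmt2 and chr5:129787204-129787503 for Psph. Capitals mark matches to TGATGNAA, the core of the C/EBP-ATF response element, or to CACGTG, the E-box bound by MYC and related factors, searched on both strands.
Pycr1: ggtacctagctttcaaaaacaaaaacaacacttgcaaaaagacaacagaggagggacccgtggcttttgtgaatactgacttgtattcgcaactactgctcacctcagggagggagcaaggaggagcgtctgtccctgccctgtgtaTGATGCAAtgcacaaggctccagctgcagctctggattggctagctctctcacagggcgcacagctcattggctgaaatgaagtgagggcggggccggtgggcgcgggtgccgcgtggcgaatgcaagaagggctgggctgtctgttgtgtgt
Asns: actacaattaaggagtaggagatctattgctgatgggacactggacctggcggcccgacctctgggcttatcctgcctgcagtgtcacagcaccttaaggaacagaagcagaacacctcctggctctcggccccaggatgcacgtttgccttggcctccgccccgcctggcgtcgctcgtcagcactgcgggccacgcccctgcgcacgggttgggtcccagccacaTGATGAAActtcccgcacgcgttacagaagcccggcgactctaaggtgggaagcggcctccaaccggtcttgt
Shmt2: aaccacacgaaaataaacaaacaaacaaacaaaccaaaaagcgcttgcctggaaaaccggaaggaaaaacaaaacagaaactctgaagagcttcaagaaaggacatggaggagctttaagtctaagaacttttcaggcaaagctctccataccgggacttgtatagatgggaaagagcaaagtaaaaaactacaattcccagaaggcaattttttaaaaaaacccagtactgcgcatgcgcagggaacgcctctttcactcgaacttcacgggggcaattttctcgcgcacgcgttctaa
Psph: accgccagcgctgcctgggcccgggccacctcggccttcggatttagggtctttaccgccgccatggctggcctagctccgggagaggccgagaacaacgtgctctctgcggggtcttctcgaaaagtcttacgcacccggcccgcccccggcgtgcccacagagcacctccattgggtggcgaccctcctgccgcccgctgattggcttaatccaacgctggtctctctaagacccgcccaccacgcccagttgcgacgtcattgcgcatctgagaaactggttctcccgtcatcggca

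Pycr1 held TGATGCAA, whose first base lies 103 bases before the start, and Asns held TGATGAAA, 23 bases before the start. Both matches read along the gene's own strand. The 8 enzymes with a RefSeq promoter were all but Cth, and TGATGNAA was found in 2 of these 8 (Pycr1 and Asns). It occurred in 3.97% of all 32851 promoters of that length. Among the 7286 genes of the expression table matched by symbol it occurred in 2.17%, counting only the first promoter listed for each. For the enzymes a match in any listed promoter counted. CACGTG was found in 1 of the 8, Aldh18a1, in 7.15% of all promoters and in 11.1% of the first promoters of the genes matched by symbol. The 2 motifs did not overlap. A match describes letters in this window and is not by itself a binding site.

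Total counts ran from 28356401 to 44016809 per library. Adar had 67.1 and 102 CPM in KO libraries, against 50.9 and 46.9 CPM in WT libraries, where CPM is the gene's count relative to the library size as scaled by the trimmed mean of M-values (TMM). A gene-level count does not show which exons were removed. In 3 of the 4 libraries the counts of 4 Y-linked genes did not match the labelled sex. These genes summed to 11705 counts in KO replicate 1, 3 in KO replicate 2, 5599 in WT replicate 3 and 10695 in WT replicate 8. KO replicate 2 alone nearly lacked them. The erythroid markers in the table (11 of 13 symbols listed) summed to 71864 and 72925 CPM in KO libraries and 103070 and 68323 CPM in WT libraries. Such a sum rests mostly on the most abundant markers. Per erythroid marker, the median difference from the WT mean in log2 CPM was -0.40 in KO replicate 1 and -0.08 in KO replicate 2. Of these 11 markers, 2 had a log2 fold change above 0. The neutrophil markers (6 of 8) summed to 286 CPM in KO replicate 1, which stood apart from KO replicate 2 (35.4 CPM) and from WT replicates 3 and 8 (39.0 and 43.1 CPM). Macrophage markers (10 of 12) summed to 8.78 and 20.8 CPM in KO libraries and 66.0 and 30.8 CPM in WT libraries. Megakaryocyte markers (7 of 8) summed to 160 and 88.6 CPM in KO libraries, against 45.5 and 73.6 CPM in WT libraries. Of these 7 markers, 6 had a log2 fold change above 0. Hepatoblast markers (10 of 12) summed to 62.7 and 74.4 CPM in KO libraries, against 133 and 54.3 CPM in WT libraries. No marker of these other cell types in the table was at 0, and the part of these differences in the results below was not tested.

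Each of the 9 enzymes had a higher level in both KO libraries than in both WT libraries. Together they summed to 2425 and 1900 CPM in KO libraries, against 1152 and 1370 CPM in WT libraries. Among all genes tested, 27.4% were higher without overlap of the groups and 26.7% were lower. The enzymes were picked with earlier results of these data known. Their counts beside the shares of all genes, here and below, are thus not a test of the list. On the mean CPM, 3 of the 9 (Shmt2, Pycr1 and Cth) were at least doubled in KO libraries, as were 7.41% of all genes. The log2 fold changes ran from 0.25 for Psat1 to 4.13 for Cth, with a median of 0.89, beside a median of -0.000773 over all genes. In bulk samples a change in the mix of cells and a change in RNA per cell cannot be told apart.

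None of the 9 passed an adjusted p of 0.05 in edgeR's quasi-likelihood test, in which 0.103% of all genes were called higher and 0% lower. At an unadjusted p below 0.05, 7 of the 9 were higher, where 9.82% of all genes were, and the exceptions were Phgdh and Psat1. DESeq2 called 5 of the 9 higher (3.29% of all genes), edgeR's likelihood ratio test called 4 (3.09%) and limma-voom called 0 (0.0747%). Leaving out single libraries moved the count of 0 to 2 without KO replicate 1 (1.29% of all genes called higher), 6 without KO replicate 2 (17.3%), 1 without WT replicate 3 (0.373%) and 1 without WT replicate 8 (0.233%). Since there were 2 libraries per group, each p-value reflects the spread of these libraries alone. The labels do not say that each came from a separate embryo. Y-linked counts (11705 in KO replicate 1, 3 in KO replicate 2) show that the KO libraries did not come from the same embryo. The WT libraries both held Y-linked counts, and the spread between them may be technical.

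**Figure D1:**
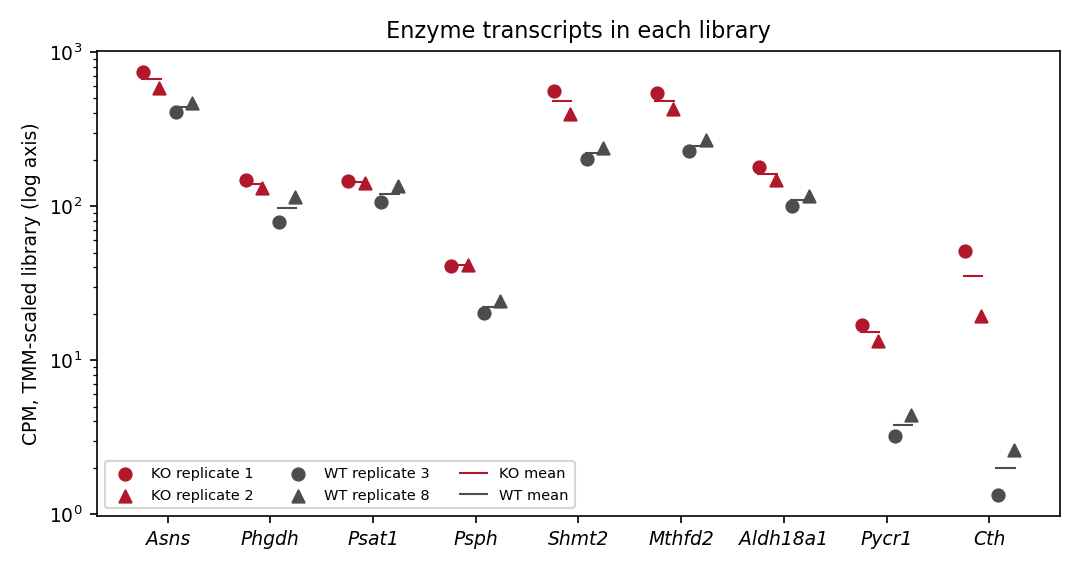
Level of each enzyme in CPM of the TMM-scaled library (log axis) in the 2 KO libraries (red) and the 2 WT libraries (grey), with a line at each group mean. For all 9 enzymes both red points lie above both grey points, by the widest margin for Cth and Pycr1 and the narrowest for Psat1.

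Asns, the enzyme that makes asparagine and the most abundant of the 9, had 744 and 587 CPM in KO libraries, against 410 and 465 CPM in WT libraries. Both KO libraries were above both WT libraries. It averaged 665 ± 111 CPM in KO and 437 ± 38.6 CPM in WT libraries (SD, n = 2 each), a log2 fold change of 0.60 (SE 0.24, edgeR adjusted p = 0.419). Asns (ENSMUSG00000029752) spans chromosome 6 from 7625169 to 7643254 on NCBIM37, minus strand.

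The serine synthesis steps differed in size along the pathway, with the last step showing the widest separation. Phgdh, the first and committed enzyme, had 147 and 130 CPM in KO libraries, against 79.3 and 115 CPM in WT libraries. Psat1, the aminotransferase of the second step, had 146 and 140 CPM in KO libraries, against 106 and 135 CPM in WT libraries. For both, WT replicate 8 lay close to the KO libraries and WT replicate 3 lay lower. Their log2 fold changes were 0.51 (SE 0.24) for Phgdh and 0.25 (SE 0.20) for Psat1, without WT replicate 3 they were 0.27 and 0.08, and without WT replicate 8 they were 0.80 and 0.42.

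Psph, the phosphatase that releases serine, had 41.2 and 41.4 CPM in KO libraries, against 20.3 and 24.1 CPM in WT libraries. The KO libraries were nearly equal and lay well above both WT libraries. It averaged 41.3 ± 0.176 CPM in KO and 22.2 ± 2.66 CPM in WT libraries (SD, n = 2 each), with a log2 fold change of 0.89 (SE 0.21, edgeR adjusted p = 0.280). Psph (ENSMUSG00000029446) lies on chromosome 5 of NCBIM37, from 130271434 to 130293129, minus strand. DESeq2 called it higher (adjusted p = 0.0232), and the likelihood ratio test did not.

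The mitochondrial one-carbon enzymes Shmt2 and Mthfd2 had mean levels 2.16 and 1.95 times as high in KO as in WT libraries. Shmt2, which splits serine into glycine and a folate-bound carbon, had 561 and 395 CPM in KO libraries, against 204 and 239 CPM in WT libraries. KO replicate 1 was the higher KO library, and the groups did not overlap. It averaged 478 ± 118 CPM in KO and 221 ± 24.6 CPM in WT libraries (SD, n = 2 each), with a log2 fold change of 1.11 (SE 0.25, edgeR adjusted p = 0.278). Shmt2 (ENSMUSG00000025403) spans chromosome 10 from 126954195 to 126959491 on NCBIM37, minus strand. It shares 14 exon bases with Ndufa4l2 on the other strand, and the strand setting of the counting is not given in the sources used here.

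Mthfd2, which oxidises the folate-bound carbon, had 539 and 427 CPM in KO libraries, against 227 and 268 CPM in WT libraries. Its order of libraries was the same as that of Shmt2. Its averages were 483 ± 79.1 CPM in KO and 247 ± 28.9 CPM in WT libraries (SD, n = 2 each), with a log2 fold change of 0.97 (SE 0.23, edgeR adjusted p = 0.295). Mthfd2 (ENSMUSG00000005667) lies on chromosome 6 of NCBIM37, from 83255685 to 83267600, minus strand. Shmt2 and Mthfd2 were both called higher by DESeq2 (adjusted p = 0.00500 and 0.00928) and by the likelihood ratio test (0.00871 and 0.0186).

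The proline pathway showed a small difference at its first step and a larger one at its last. Aldh18a1, which makes pyrroline-5-carboxylate from glutamate, had 179 and 147 CPM in KO libraries, against 101 and 117 CPM in WT libraries, and its log2 fold change was 0.58 (SE 0.20). Pycr1, the mitochondrial reductase that completes proline, had 17.0 and 13.3 CPM in KO libraries, against 3.23 and 4.39 CPM in WT libraries. For both genes each KO library lay above each WT library. Pycr1 averaged 15.2 ± 2.56 CPM in KO and 3.81 ± 0.825 CPM in WT libraries (SD, n = 2 each), with a log2 fold change of 1.99 (SE 0.30, edgeR adjusted p = 0.120). The adjusted p was 0.0153 without KO replicate 1 and 0.000752 without KO replicate 2, and did not pass without WT replicate 3 (0.339) or without WT replicate 8 (0.164). Pycr1 (ENSMUSG00000025140) spans chromosome 11 from 120497026 to 120505083 on NCBIM37, minus strand.

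Cth, which releases cysteine from cystathionine, showed the widest difference. It had 50.9 and 19.5 CPM in KO libraries, against 1.34 and 2.62 CPM in WT libraries, the WT values resting on 37 and 124 counts. Both KO libraries were far above both WT libraries, and KO replicate 1 was 2.61 times KO replicate 2. Cth averaged 35.2 ± 22.2 CPM in KO and 1.98 ± 0.904 CPM in WT libraries (SD, n = 2 each), a ratio of 17.8, with a log2 fold change of 4.13 (SE 0.59, edgeR adjusted p = 0.116). This was rank 36 from the top among the fold changes of all genes. Without KO replicate 1, the library with the high neutrophil markers, the log2 fold change was 3.26 (adjusted p = 0.00487). It was 4.63 without KO replicate 2 (adjusted p = 0.000590), 3.74 without WT replicate 3 (0.0149) and 4.69 without WT replicate 8 (0.0395). Cth (ENSMUSG00000028179) lies on chromosome 3 of NCBIM37, from 157557212 to 157588041, minus strand.

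**Figure D2:**
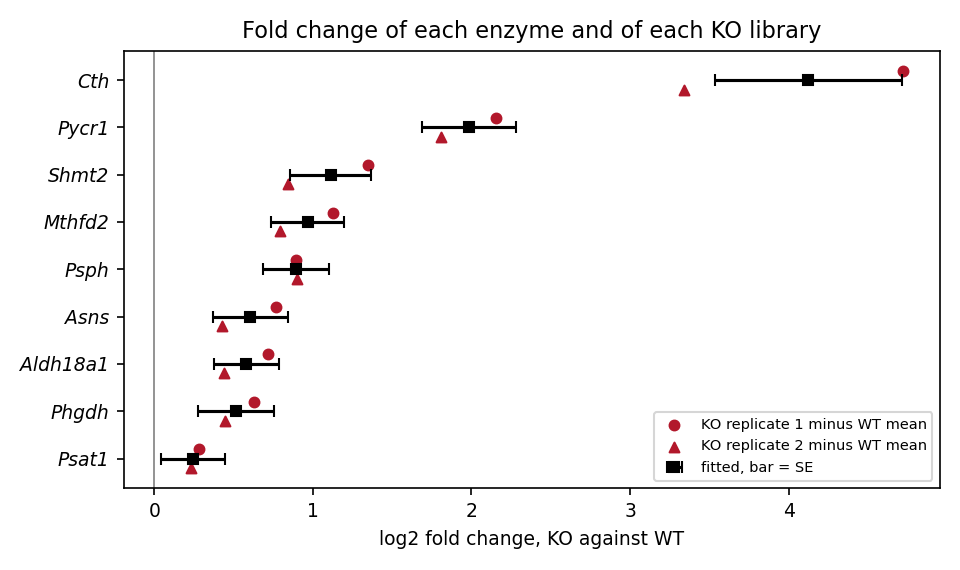
Fitted log2 fold change of each enzyme, KO against WT, with its SE (black), and the difference of each KO library from the WT mean on the log2 CPM scale (red). Cth (4.13) and Pycr1 (1.99) stand to the right of the other 7 enzymes, which run from 0.25 to 1.11, and the KO libraries differ most for Cth.

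The order of levels per kilobase of exon was led by the same 3 enzymes in both groups. Asns had 243 ± 40.7 CPM per kb in KO libraries and 160 ± 14.1 in WT libraries (SD, n = 2 each). Shmt2 had 210 ± 51.6 in KO and 97.0 ± 10.8 in WT, and Mthfd2 had 177 ± 29.1 in KO and 90.8 ± 10.6 in WT. In KO libraries the values of Shmt2 overlapped those of Asns and of Mthfd2, and in WT libraries both Asns values stood above the overlapping values of Shmt2 and Mthfd2. Phgdh (55.8 in KO, 39.1 in WT), Aldh18a1 (41.0 and 27.4), Psat1 (33.6 and 28.4) and Psph (22.7 and 12.2) followed, with overlapping values of Psat1 and Aldh18a1 in WT libraries. Pycr1 (3.85 in KO, 0.968 in WT) and Cth (15.5 and 0.875) had the lowest means in both groups. Their values overlapped in WT libraries, and in KO libraries the means of Psph and Cth were closer than the SD of Cth, 9.80. Every enzyme exceeded 1 CPM in each of the 4 libraries.

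The libraries within a group also differed in a common direction. KO replicate 1 was above KO replicate 2 for 8 of the 9 enzymes, all but Psph, where 49.6% of all genes were. WT replicate 8 was above WT replicate 3 for all 9, where 53.4% of all genes were. KO replicate 1 was the farther of the KO libraries from the WT mean for 8 of 9, again all but Psph, and for 82.7% of all genes. The enzyme median was 0.89 in KO replicate 1 and 0.79 in KO replicate 2, as differences from the WT mean in log2 CPM.

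**Figure D3:**
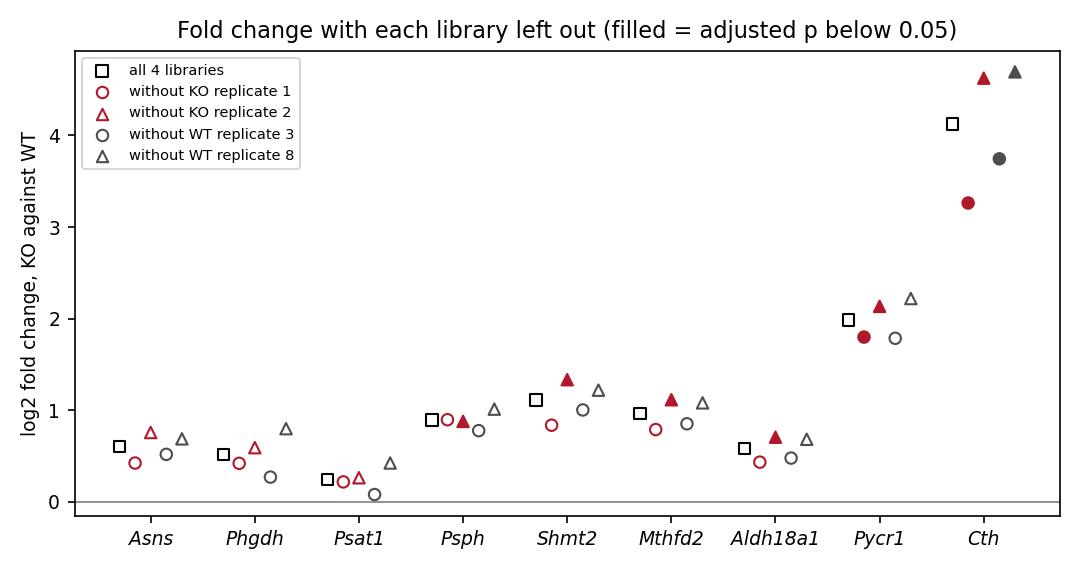
Log2 fold change of each enzyme, KO against WT, with all 4 libraries and with each library left out in turn; filled symbols mark an adjusted p below 0.05 in edgeR's quasi-likelihood test. Cth is filled in each of the 4 fits with a library left out, Pycr1 in the 2 that leave out a KO library, and every value stays above 0.

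A list of neighbouring amino acid and folate genes gave a different picture. Of its 76 symbols (Pycr3 being another name for Pycrl), 58 were in the table, and 21 of these 58 had a log2 fold change above 0, as did 50% of all genes. Their median was -0.14. None passed in edgeR's quasi-likelihood test in either direction, limma-voom called 0, DESeq2 called 2 higher (Chac1 and Gpt2), where it called 3.29% of all genes higher, and the likelihood ratio test called 1 (Gpt2), where it called 3.09%. At an unadjusted p below 0.05, 8 were higher and 1 was lower, where 9.82% and 2.08% of all genes were. Leaving out single libraries gave 1 higher without KO replicate 1, 7 higher and 14 lower without KO replicate 2, 1 higher without WT replicate 3 and 0 without WT replicate 8. Without KO replicate 2 the fit called 17.3% of all genes higher and 15.3% lower.

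The 16 measured genes of folate one-carbon metabolism outside the mitochondrial pair had a median of -0.34, and 3 of them were above 0. The 4 genes of glycine cleavage and serine breakdown had a median of -0.14, and the 6 of proline and ornithine -0.32. The 14 genes of glutamate, glutamine, aspartate and alanine had a median of 0.07, the 14 of the methionine cycle and thiol use -0.05, and the 4 of branched-chain amino acids 0.05.

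Among these neighbours Gpt2, the mitochondrial alanine aminotransferase, had the smallest p. It had 12.2 and 6.43 CPM in KO libraries, against 1.05 and 1.29 CPM in WT libraries, a log2 fold change of 2.98 (SE 0.43, edgeR adjusted p = 0.118). Gclc, the catalytic subunit of the rate-limiting enzyme of glutathione synthesis, had 407 and 351 CPM in KO libraries, against 223 and 236 CPM in WT libraries (log2 fold change 0.73). Chac1, which degrades glutathione, had 11.5 and 26.5 CPM in KO libraries, against 5.95 and 1.39 CPM in WT libraries (log2 fold change 2.40, SE 0.74). The KO libraries lay above the WT libraries for all 3, with a wide spread within both groups for Chac1.

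The 3 neighbours with lower values and the smallest p were Fpgs, Slc25a32 and Slc25a13. Fpgs, which adds the glutamate tail that keeps folate in the cell, had 11.5 and 19.3 CPM in KO libraries, against 25.2 and 26.2 CPM in WT libraries (log2 fold change -0.73). Slc25a32, the mitochondrial folate carrier, had 5.77 and 11.5 CPM in KO libraries, against 14.9 and 16.5 CPM in WT libraries (-0.86). Slc25a13, an aspartate-glutamate carrier, had 17.5 and 25.5 CPM in KO libraries, against 31.0 and 33.5 CPM in WT libraries (-0.58). KO replicate 1 was the lowest library for each.

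**Figure D4:**
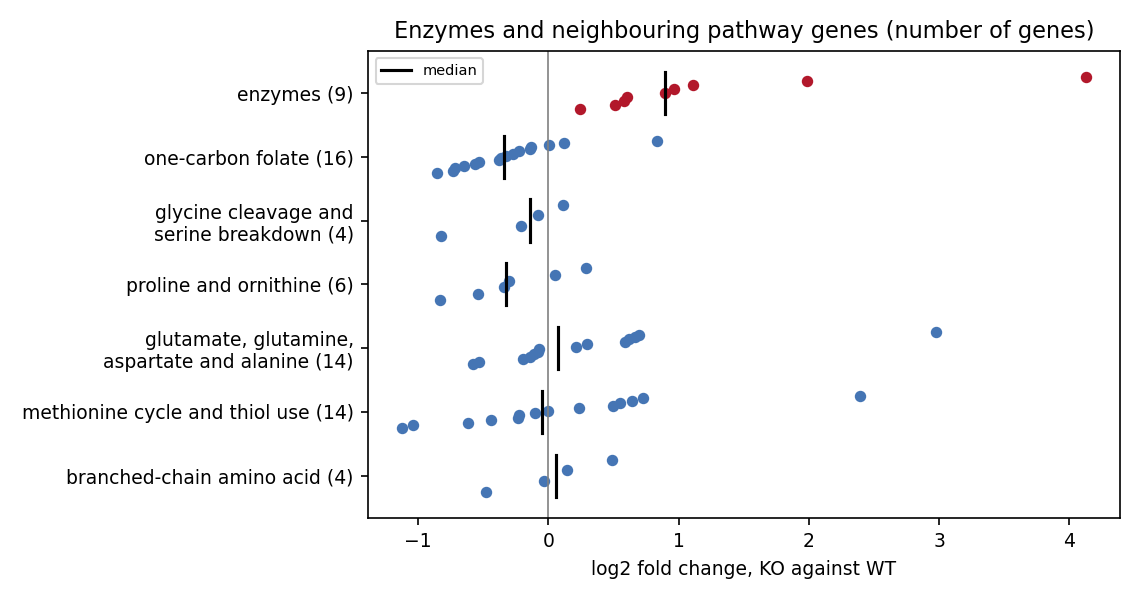
Log2 fold change, KO against WT, of the 9 enzymes (red) and of the neighbouring pathway genes by subgroup (blue), 1 point per gene, with a black line at each median. The enzyme median is 0.89, while the subgroup medians run from -0.34 to 0.07, and Gpt2 (2.98) and Chac1 (2.40) stand apart from their subgroups.

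Several of the enzymes have related isozymes in the neighbour list, and these had values near or below those of WT libraries. The 4 pairs shown were chosen after the values were seen. Shmt1, the cytosolic form of Shmt2, had 5.68 and 8.27 CPM in KO libraries, against 10.1 and 11.8 CPM in WT libraries, so that Shmt2 over Shmt1 per kb of exon was 168 and 81.4 in KO libraries, against 34.3 and 34.5 in WT libraries. Mthfd2 over Mthfd1, the cytosolic trifunctional folate enzyme, was 3.91 and 2.90 in KO libraries, against 1.54 and 1.44 in WT libraries. Mthfd2 over Mthfd2l, its mitochondrial relative, was 212 and 131 in KO libraries, against 73.4 and 81.3 in WT libraries.

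For proline, Pycr1 over Pycrl, a cytosolic reductase, was 0.360 and 0.224 in KO libraries, against 0.0505 and 0.0648 in WT libraries. Per kb of exon, Pycrl was thus the more abundant transcript of this pair in both groups. Without scaling to exon length, Pycr1 over Pycrl was 1.05 and 0.652 in KO libraries, against 0.147 and 0.188 in WT libraries. All 4 ratios were higher in both KO libraries than in both WT libraries, and no test is given, since the pairs were picked for this pattern.

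**Figure D5:**
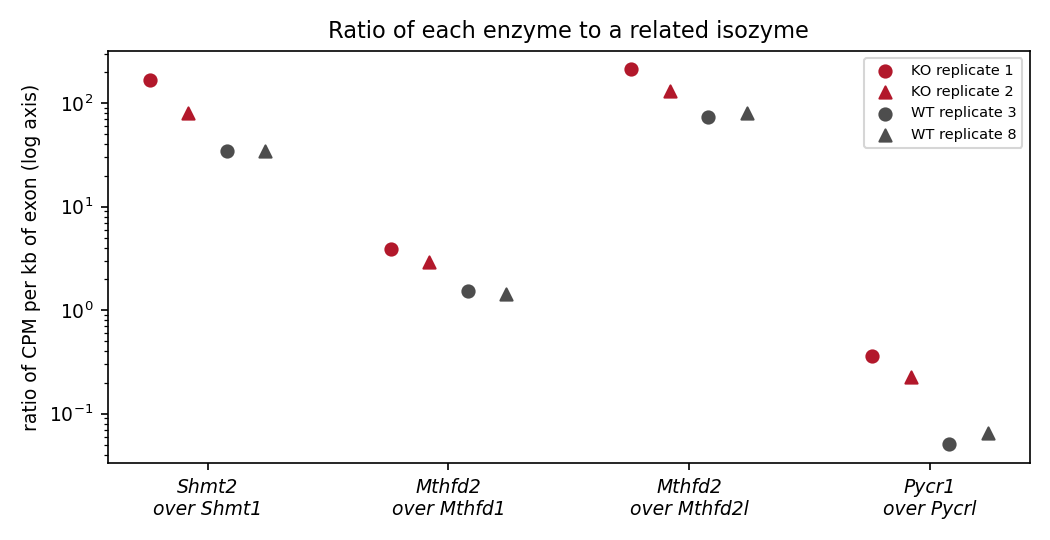
Ratio of each enzyme to a related isozyme, as CPM per kb of exon (log axis), in the 2 KO libraries (red) and the 2 WT libraries (grey). In each of the 4 pairs both KO points lie above both WT points, and Pycr1 stays below Pycrl in every library.

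A list of 12 regulators, made up of transcription factors, Trib3 and the eIF2 kinases, was read beside the enzymes. In edgeR's quasi-likelihood test 3 of the 12 rose, where 0.103% of all genes did. The list was chosen with earlier results of these data known, so this share is not a test of it. Those that rose were Trib3 (log2 fold change 4.89), Atf5 (2.96) and Cebpb (2.70). Trib3 is a pseudokinase that restrains ATF4, and Atf5 and Cebpb are leucine zipper transcription factors. Whether any of the 12 acted on the enzymes here was not tested. Atf4 itself had 714 and 462 CPM in KO libraries, against 474 and 398 CPM in WT libraries, so that KO replicate 2 lay between the WT libraries (log2 fold change 0.43, SE 0.28). ATF4 is controlled largely through translation, which these RNA counts do not measure.

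The other regulators did not pass. The stress factors Ddit3 and Atf3 had log2 fold changes of 1.74 and 3.81, Nfe2l2 (the antioxidant factor NRF2) had 0.12, and Myc had 0.34. The value of Atf3 rests on only 6 and 13 counts in WT libraries, and its KO libraries differed (5.45 and 1.68 CPM). Of the eIF2 kinases, the interferon-induced double-stranded RNA sensor Eif2ak2 (PKR) had 43.8 and 77.4 CPM in KO libraries, against 33.4 and 31.4 CPM in WT libraries (log2 fold change 0.90). The haem-regulated Eif2ak1 had a log2 fold change of 0.24, the endoplasmic reticulum kinase Eif2ak3 0.11 and the amino acid sensor Eif2ak4 0.23.

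For the 3 enzymes with the smallest p, the most alike genes were found by Euclidean distance between log2 CPM profiles centred over the 4 libraries. The candidates were the 9632 other genes whose log2 CPM averaged 1 or more. Nearest to Cth were Gm8995 (distance 0.17), Gbp6 (0.27) and Samd9l (0.45). Nearest to Pycr1 were BC006779 (0.07), Tecta (0.28) and Tmtc1 (0.34), and nearest to Shmt2 were Psme1 (0.07), Sidt2 (0.09) and Acad10 (0.10). With 4 libraries, likeness of this kind rests mostly on the difference between the groups.

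The authors' deposited table gave no enzyme an adjusted p below 0.05. The smallest in the authors' deposited table were 0.179 for Pycr1 and 0.220 for Cth, and the largest was 0.536 for Psat1.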

How the data were processed

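RNA sequencing counts of sorted fetal liver erythroid cells were compared between 2 KO and 2 WT libraries, grouped by their titles. Raw counts per gene are whole numbers as the authors deposited them, and the p-values quoted from the comparison table are those the authors deposited. Per the submitters' processing notes the tools were TopHat2 2.0.8 and Bowtie2 2.1.0.0, HTSeq and limma, BWA 0.6.2, GATK, Trimmomatic 0.30, edgeR, Cufflinks and SAMtools 0.1.19, and the builds were NCBIM37 and mm9. The role of each, the strand setting and the treatment of reads shared by similar genes are not given in the sources used here.

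The fit used edgeR 4.0.16 under R 4.3.3 (filterByExpr, TMM, estimateDisp, glmQLFit with robust=TRUE and legacy=TRUE, two-sided quasi-likelihood F test) on all 10716 genes, with Benjamini-Hochberg adjustment over all of them and calls at 0.05. No gene was filtered out (0 of the table), 2 residual degrees of freedom were left, and the common biological coefficient of variation was 25.6%. Each SE was taken as the size of the log2 fold change over the root of F. The procedure was tested on simulated data. Levels are CPM of the TMM-scaled library, log2 CPM used a prior count of 2, and exon lengths and positions came from GENCODE M1 on NCBIM37. Promoters are RefSeq's on GRCm38.p6. Replicates differed far beyond counting noise (chi-square over degrees of freedom 203 for KO, 88.9 for WT), so each was counted as 1 sample. With total counts of at least 28356401 per library, counting error is small beside the spread between libraries except for the lowest values.

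Other settings tried were no filter, a stricter one (every library of 1 or both groups at 1 CPM or more), RLE or no library scaling, DESeq2 1.42.0, limma-voom (limma 3.58.1), the likelihood ratio test, robust=FALSE, legacy=FALSE and leaving out each library. Full values were given for Asns and the 5 enzymes with the smallest p, and neighbours were named as the 3 with the smallest p in each direction. A related pair is not reported here. The enzymes and lists were chosen with earlier results of these data known.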

Additional observations from a re-analysis of the deposited data

How the results depend on the processing

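Each of the 9 enzymes kept a log2 fold change above 0 under the 13 alternatives, and RLE scaling, no filter, the stricter filter, limma-voom, robust=FALSE and legacy=FALSE left the count of called enzymes at 0. The genes called over the whole table were 87 without library scaling, 374 under DESeq2 and 349 under the likelihood ratio test, against 11. The enzymes called higher were then 2, 5 and 4, against 0, and the neighbouring genes called higher 1, 2 and 1, against 0. The enzyme median was 0.82 without library scaling, against 0.89. In those same 3 settings Cth was called at log2 fold changes of 4.02, 4.14 and 4.14 and Pycr1 at 1.90, 1.98 and 1.98. Shmt2 was called at 1.11 by DESeq2 and at 1.11 by the likelihood ratio test, Mthfd2 at 0.96 and 0.97, and Psph at 0.89 by DESeq2. Over the 4 fits that leave out a library, the called genes numbered 27 to 3492, the enzymes called higher 1 to 6, and the neighbours called higher 0 to 7 and lower 0 to 14. The enzyme median ran from 0.78 to 1.01. Log2 fold changes ran from 3.26 to 4.69 for Cth, 1.79 to 2.22 for Pycr1, 0.84 to 1.33 for Shmt2, 0.79 to 1.11 for Mthfd2, 0.78 to 1.01 for Psph, 0.43 to 0.71 for Aldh18a1, 0.42 to 0.76 for Asns, 0.27 to 0.80 for Phgdh and 0.08 to 0.42 for Psat1. In these fits the remaining single library of a group is assumed to vary like the other group. The cause of these shifts was not tested. Cbs gave no value in any setting. No paired analysis was possible because the groups share no replicate number. With 2 libraries per group the spread between libraries, not depth, limits the precision.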
